A study of Homo sapiens with 18 samples.

Results

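CAY10566, an inhibitor of the stearoyl-CoA desaturase SCD1, was added to OVCAR5 cells that had been given stearate, and the RNA of these cells was compared with that of cells given stearate and the vehicle. The comparison comprised 6 of the 18 sequenced samples, chosen by their labels: 3 samples of stearate+CAY10566 (50 µM stearate and 1 µM CAY10566) and 3 samples of stearate+DMSO (50 µM stearate and DMSO). OVCAR5 is an established human cell line, labelled here as wild type and as a high grade ovarian serous adenocarcinoma. All cells were exposed for 24 h in medium with 5% bovine serum albumin free of fatty acids. The other 12 samples received no fatty acid or 50 µM oleate, each with DMSO or 1 µM CAY10566, with 3 samples per condition. The labels do not say whether the 3 samples of a condition came from separate cultures, so p-values measure only the spread between these samples, which may be technical.

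SCD1 is an enzyme of the endoplasmic reticulum that places a double bond in saturated fatty acids and so turns stearate into oleate. The genes of sterol and fatty acid synthesis, SCD among them, are switched on together by the SREBP transcription factors, which are held in the endoplasmic reticulum by INSIG proteins when sterols are plentiful and are released to the nucleus when sterols are short. Polyunsaturated and monounsaturated fatty acids lower the activity of SREBP-1, and an excess of saturated fatty acids in the membrane can set off the unfolded protein response (UPR), whose arms are started by PERK, IRE1 and ATF6.

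Expression was given as TPM, which is the share of a gene's transcripts among those of a library on a common scale. Of 60483 gene lines, 13745 averaged 1 TPM or more in the 6 samples with stearate and were tested. Fold changes are differences of log2(TPM + 1), which understate the change of genes with low TPM, and they are written as stearate+CAY10566 minus stearate+DMSO. They were tested with limma in a model of 6 conditions over all 18 samples. A gene was counted as changed at a false discovery rate (FDR, Benjamini-Hochberg adjustment over all genes tested) under 0.05 and a change of more than 25% (a fold change of more than 0.32 in either direction on the log2 scale). The sequencing depth cannot be read from TPM and is unknown, and the errors given are those between samples.

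Of the markers of epithelial and ovarian carcinoma cells, EPCAM, CDH1, KRT7, KRT8, KRT18, KRT19 and PAX8 passed the filter, and the summed TPM of all 10 listed genes was 2421 to 2566 with DMSO and 2520 to 2614 with CAY10566. MUC16, MSLN and WT1, which mark serous ovarian tumours, had mean levels of 0.48, 0.90 and 0.19 TPM, below the filter. They are 3 of the 10 listed markers, and PAX8 of the same list passed, so the labelled tumour type is not judged from them. Of 11 immune, endothelial and fibroblast markers, 9 were below the filter. The remaining genes were COL1A1 and CD68, and without CD68 the 10 other markers summed to 4.80 to 7.47 TPM. Across genes, the correlation of log2(TPM + 1) was 0.982 to 0.986 in the 6 pairs of samples within a condition and 0.982 to 0.985 in the 9 pairs between the conditions.

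The transcriptome of cells with stearate differed little with and without the inhibitor. The median log2 fold change was -0.03 and the median absolute log2 fold change 0.07, while the spread of a gene between samples of a condition was 0.11 on the same scale (median SD). Between the groups lay 20.3% of the variance of the 6 samples, where an equal share for each of the 5 degrees of freedom would be 20% (exact permutation test over 20 assignments, p = 0.50; the smallest p possible is 0.10). Only 2 genes passed the FDR, which is 0.0146% of those tested, and 1 of them also passed the fold change (0.00728%). At an unadjusted p under 0.05, 208 genes (1.51%) were higher and 559 genes (4.07%) lower with CAY10566. This preponderance of lower genes depended on the scaling. After TPM were rescaled by median-of-ratios size factors, 421 genes were higher and 301 lower, and the median log2 fold change was -0.00098. After the correction for transcript length and GC content, 409 were higher and 445 lower.

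The genes with the larger estimates were mostly those with few transcripts. A change past the fold threshold was estimated for 702 genes, 351 in each direction. Of the 3595 genes with a mean of 1 to 5 TPM, 13.7% were past this fold, but of the 4363 genes with 20 to 100 TPM only 0.871% were. The 95% confidence interval lay wholly inside the fold threshold in both directions for 7669 genes (55.8%). That share was 13.3% in the genes of 1 to 5 TPM and 96.1% in the 1403 genes at or above 100 TPM. Most abundant genes were thus bounded to a smaller change, and for most rare genes a change of that size could not be told from the spread.

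**Figure D1:**
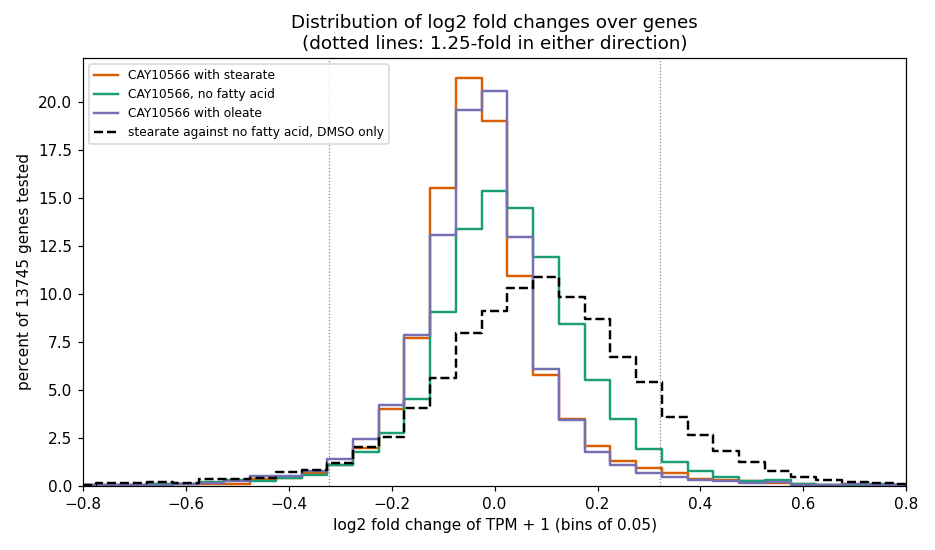
Distribution of log2 fold changes of TPM + 1 (x axis, bins of 0.05) over the 13745 genes tested (y axis, percent of genes) for CAY10566 with stearate, without fatty acid and with oleate, and, as a dashed line, for stearate against no fatty acid with DMSO only. The 3 CAY10566 curves are narrow and centred near 0 (medians -0.03, 0.02 and -0.03), and the dashed curve is wider, with a median of 0.09.

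For scale, the other comparisons of the same size were fitted in the same model. Stearate against no fatty acid, both with DMSO, changed 1026 genes (7.46%) by the same rule, with a median absolute log2 fold change of 0.15; that comparison shares its 3 stearate+DMSO samples with the one described here. CAY10566 without fatty acid changed 0 genes in limma, with 1392 (10.1%) at an unadjusted p under 0.05. CAY10566 with oleate also changed 0 genes in limma, with 645 (4.69%) at an unadjusted p under 0.05. The median absolute log2 fold change was 0.09 without fatty acid and 0.07 with oleate, beside 0.07 with stearate.

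Among the genes of sterol synthesis, FDPS rose with the inhibitor. FDPS encodes farnesyl diphosphate synthase, the branch point enzyme from which sterols and prenylated proteins are made (GRCh38, chr1:155308748-155320666, plus strand). Its level was 198, 189 and 188 TPM in the 3 stearate+DMSO samples and 225, 223 and 229 TPM in the 3 stearate+CAY10566 samples. The groups did not overlap, and the gap between them was wider than the range within either. The log2 fold change was 0.24 ± 0.03 (SE, n = 3 per group; 95% confidence interval 0.17 to 0.31, limma with Benjamini-Hochberg adjustment, adjusted p = 0.0167), an increase of 17.9%, which is under the fold threshold. In bulk RNA, more cells with a transcript and more transcript per cell cannot be told apart. FDPS has close processed copies in the genome that could share its reads; the 8 listed copies, FDPSP1 to FDPSP8, reached at most 0.23 TPM in the 6 samples. The adjusted p of FDPS passed the threshold in 1 of 6 fits that each left out 1 of the 6 samples, the one without stearate+DMSO replicate 1 (0.0403), and lay between 0.0746 and 0.192 in the other 5. It was also lost without the variance trend of limma (adjusted p = 0.330) and in the 6 samples alone (adjusted p = 0.403).

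The other genes of the mevalonate pathway, which builds squalene from acetyl-CoA, lay mostly above 0 without passing the FDR. Of the 11 members, all were tested, 9 had a log2 fold change above 0 and the median was 0.09, against -0.03 and 4930 of 13745 genes above 0 (35.9%) overall. MVD, mevalonate diphosphate decarboxylase, was at 87.8, 84.6 and 79.0 TPM with DMSO and at 94.5, 107 and 124 TPM with CAY10566. All 3 samples with the inhibitor were above all 3 without it, but they were widely spread, and the log2 fold change of 0.36 ± 0.09 (SE, 95% confidence interval 0.16 to 0.56) had an adjusted p of 0.531 in limma. FDFT1, squalene synthase, had a log2 fold change of 0.12 (interval 0.01 to 0.23) and ACAT2, which makes acetoacetyl-CoA, one of 0.17 (interval -0.03 to 0.36). Other steps stood nearer to 0: HMGCS1, the synthase at the entry of the pathway, was at 0.10 (interval -0.14 to 0.35) and SQLE, squalene epoxidase, at 0.09 (interval -0.03 to 0.20). Below 0 were PMVK, phosphomevalonate kinase, at -0.07 and GGPS1, which makes geranylgeranyl diphosphate for protein prenylation, at -0.18 (interval -0.38 to 0.02).

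In the later part of the pathway, from lanosterol to cholesterol, 6 of 11 genes had estimates above 0 and the median log2 fold change was 0.05. DHCR7, the last reductase on the way to cholesterol, was at 86.2, 83.7 and 77.6 TPM with DMSO and at 88.3, 90.9 and 97.0 TPM with CAY10566. The groups did not overlap, though by a margin of about 2 TPM, and the log2 fold change was 0.16 (interval 0.04 to 0.27, adjusted p = 0.754 in limma). MSMO1, a sterol C4-demethylating oxidase, had a log2 fold change of 0.18 (interval 0.02 to 0.34) and LSS, lanosterol synthase, one of 0.22 (interval -0.02 to 0.47). EBP (0.10), HSD17B7 (0.07) and CYP51A1 (0.05) stood between these and 0. SC5D (-0.03; above 0 after rescaling), LBR (-0.05), TM7SF2 (-0.11) and NSDHL (-0.12) had estimates below it. For 9 of the 11 genes, the interval lay inside the fold threshold in both directions.

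The regulators of the pathway and the uptake genes stood nearer to 0. Of 14 listed genes, 13 were tested and the other was below the filter. Their median log2 fold change was 0.01, 8 were above 0, and 12 had an interval inside the fold threshold. INSIG1, the retention protein and itself an SREBP target, was at 58.8, 57.0 and 50.4 TPM with DMSO and at 60.5, 60.0 and 65.7 TPM with CAY10566. The samples with the inhibitor were all the higher ones, by 1.12-fold, with a log2 fold change of 0.16 (interval 0.01 to 0.32, adjusted p = 0.876 in limma). SREBF1 (0.10, interval -0.09 to 0.30) and SREBF2 (0.09, interval -0.11 to 0.30), which encode the factors themselves, and STARD4 (0.18, interval -0.07 to 0.44), a cholesterol carrier, had estimates above 0, while SCAP (0.01) and INSIG2 (0.03), their other partners in the membrane, were near it.

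Of 11 listed genes of fatty acid synthesis, 9 were tested and 0 passed the FDR, and ACACB and THRSP were below the filter. At an unadjusted p under 0.05, 3 were higher (33.3%) and 0 lower, beside 1.51% and 4.07% of all genes. ACSS2, which makes acetyl-CoA from acetate, was at 40.6, 35.8 and 34.4 TPM with DMSO and at 46.2, 45.8 and 45.9 TPM with CAY10566. The 3 samples with the inhibitor nearly coincided and lay above the others, with a log2 fold change of 0.31 ± 0.08 (SE, interval 0.14 to 0.48, adjusted p = 0.511 in limma). FASN, fatty acid synthase, was at 56.4, 61.5 and 65.0 TPM with DMSO and at 75.7, 68.2 and 76.1 TPM with CAY10566. The groups did not overlap, the mean level was 20.3% higher with the inhibitor, and the log2 fold change was 0.26 (interval 0.07 to 0.46, adjusted p = 0.732 in limma). SLC25A1, which exports citrate from mitochondria for acetyl-CoA supply, was 108, 108 and 110 TPM with DMSO against 116, 116 and 118 TPM, a tight but small difference of 0.10 (interval 0.01 to 0.19). ACACA, acetyl-CoA carboxylase, was too variable to place (0.26, interval -0.06 to 0.57). ACLY (-0.01; 0.03 after rescaling), ME1 (-0.03), MID1IP1 (-0.03) and MCAT (-0.07) had estimates below 0 and intervals inside the fold threshold, and ME1 and MID1IP1 were also above 0 after rescaling. The median of the 9 genes was 0.01.

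The target of the inhibitor, SCD, had the largest log2 fold change among the 60 tested genes of these 5 lists, closely followed by MVD. Their order turned without stearate+CAY10566 replicate 1 (0.39 for SCD, 0.45 for MVD). Without stearate+DMSO replicate 3, MVD (0.32) and FASN (0.31) were both above SCD (0.27). SCD (GRCh38, chr10:100347233-100364826, plus strand) was at 170, 152 and 131 TPM in the stearate+DMSO samples and at 189, 188 and 206 TPM in the stearate+CAY10566 samples. The groups did not overlap, and the DMSO samples were the more widely spread. The log2 fold change was 0.37 ± 0.08 (SE, n = 3 per group; interval 0.20 to 0.54), with a mean level 28.8% higher and an adjusted p of 0.389 in limma, so it did not pass the FDR on TPM as deposited. It passed after median-of-ratios rescaling (0.41, adjusted p = 0.0494 in limma) and once the dependence of each library on transcript length and GC content had been fitted and taken out (0.41, adjusted p = 0.0276), the latter chosen after the data had been seen. RNA of the target gene says nothing of the enzyme's activity, so it does not check the inhibition. SCD5, the other human stearoyl-CoA desaturase, was at 2.72 to 3.20 TPM in the 6 samples, lower in all 3 with the inhibitor, with a log2 fold change of -0.12 (interval -0.35 to 0.11).

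Of the other desaturation and elongation genes, none reached an unadjusted p under 0.05. The list held 20 genes, of which 16 were tested, 9 of them above 0, with a median log2 fold change of 0.003. ELOVL6, which lengthens palmitate to stearate, had the next estimate after SCD at 0.17 (interval -0.05 to 0.38), and its groups did not overlap. CYB5A, the electron donor of SCD1, followed at 0.14 (interval -0.07 to 0.35). FADS1 (0.10) and FADS2 (-0.10), the desaturases of polyunsaturated fatty acids, lay on opposite sides of 0 with intervals that held it. ELOVL1, the elongase of very long saturated chains, was at 201 to 219 TPM in all 6 samples, with a log2 fold change of 0.01 (interval -0.07 to 0.09). ELOVL2, ELOVL3, ELOVL4 and HACD4 were below the filter.

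**Figure D2:**
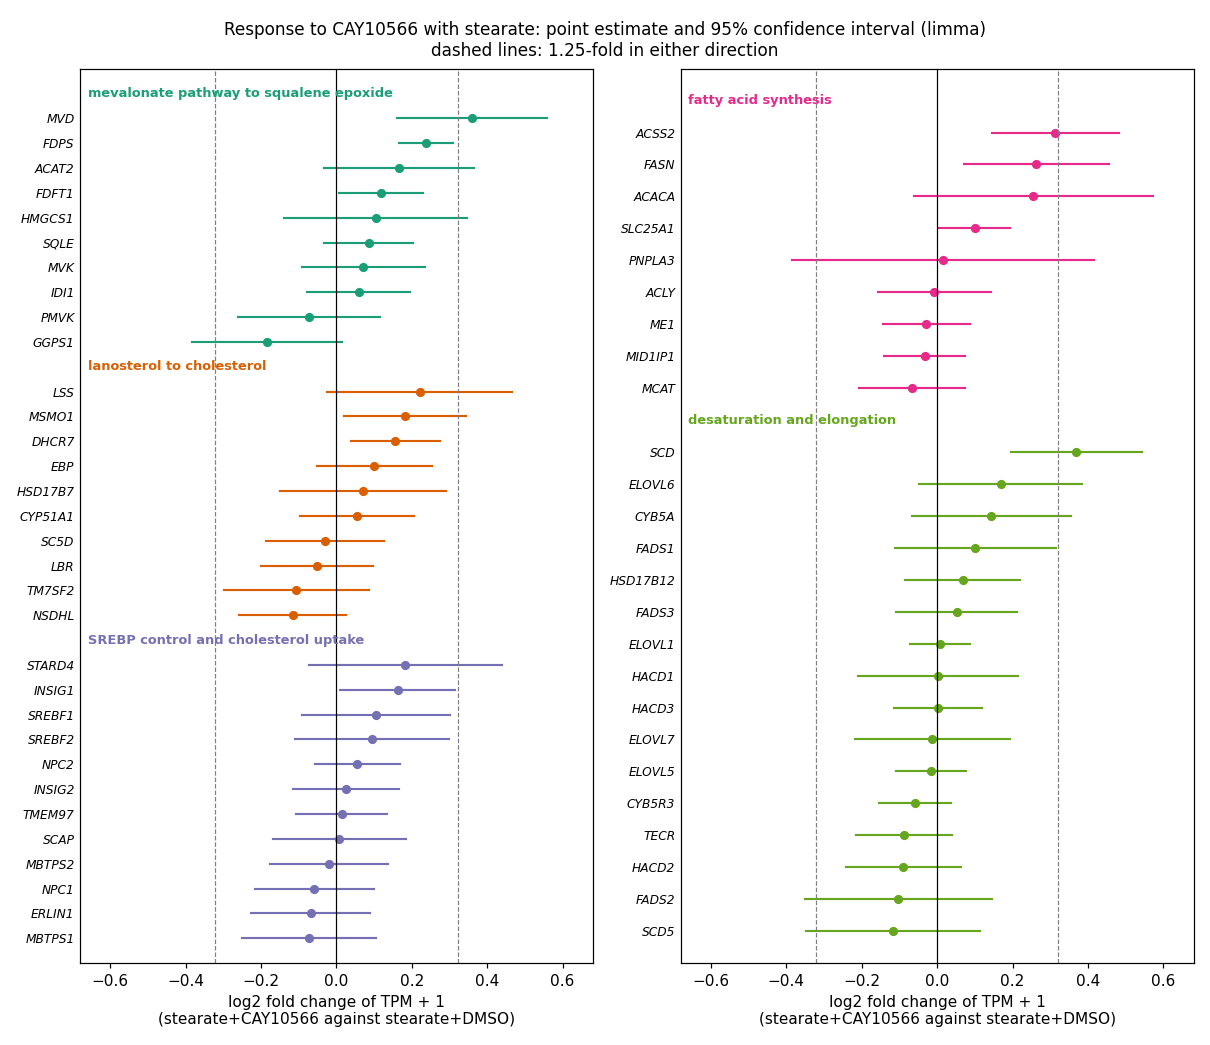
Log2 fold change of TPM + 1 (x axis; stearate+CAY10566 against stearate+DMSO) with its 95% confidence interval from limma for 57 of the 60 tested genes of the 5 sterol and fatty acid lists; dashed lines mark the fold threshold of 0.32. Only MVD and SCD have point estimates past the upper line, none is past the lower line, and the intervals of 10 genes exclude 0, all to the right of it.

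Taking the 5 lists as 1 set of 60 genes, 37 (61.7%) had estimates above 0 and the median log2 fold change was 0.04. At an unadjusted p under 0.05, 10 genes were higher (FDPS, SCD, ACSS2, MVD, FASN, DHCR7, MSMO1, SLC25A1, INSIG1 and FDFT1) and 0 were lower, against 1.51% and 4.07% of all genes tested. After rescaling 14 of the 60 were higher and 0 lower, against 3.07% and 2.19% of all genes, and after the length and GC correction 16 and 0, against 3.01% and 3.27%. The groups did not overlap in 11 genes that were higher and in 2 that were lower, where 2.93% and 8.66% of all genes did so. Of the 60 genes, 44 (73.3%) had an interval inside the fold threshold, so most of these genes were not just uncalled but bounded to small changes. The lists share transcription factors, and their members are not independent of each other.

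**Figure D3:**
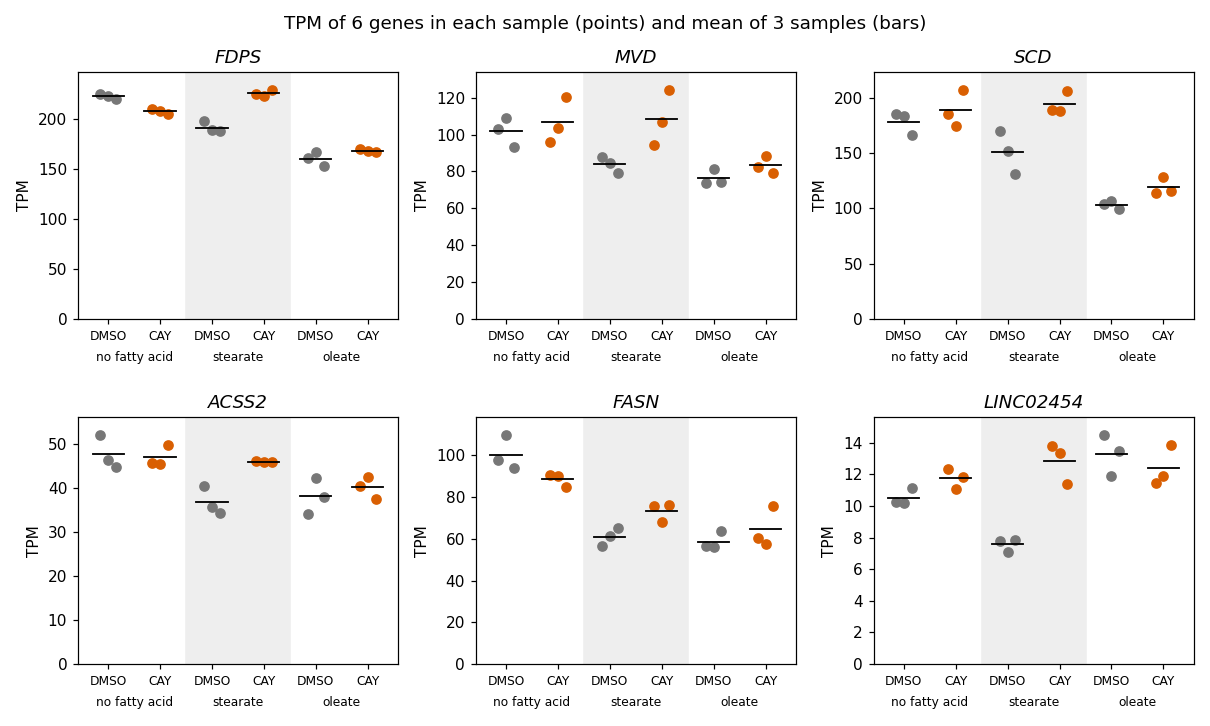
TPM (y axis, from 0) of FDPS, MVD, SCD, ACSS2, FASN and the non-coding RNA LINC02454 in each of the 18 samples (grey points, DMSO; orange points, CAY10566) with the mean of each condition (black bars); the shaded panels hold the 6 samples with stearate. In all 6 genes the 3 orange points with stearate lie above the 3 grey points with stearate, as for FDPS with 223 to 229 against 188 to 198 TPM.

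Whether the response depended on stearate was asked by the difference between responses. The responses compared share no sample. For FDPS, CAY10566 without fatty acid gave 210, 208 and 205 TPM against 225, 223 and 220.0 TPM with DMSO, a log2 fold change of -0.10 (interval -0.17 to -0.03) that did not pass the FDR (limma adjusted p = 0.436). The responses with stearate and without fatty acid differed by 0.34 ± 0.05 (SE; limma interaction, adjusted p = 0.0333), the only gene of 13745 (0.00728%) past the FDR in that comparison. With oleate, FDPS was at 161, 166 and 153 TPM with DMSO and at 170, 168 and 167 TPM with CAY10566. That response was 0.07 (interval 0.00 to 0.14), and it differed from the one with stearate by 0.17 (interval 0.07 to 0.27, limma adjusted p = 1.0), which did not pass. The call against no fatty acid was lost with the replicate number as a block (limma adjusted p = 0.0601) and without the variance trend (0.234). It was also lost after rescaling (0.0956) and after the length and GC correction (0.106). Of the 12 fits that left out 1 sample, 11 lost it (the highest adjusted p was 0.187). The 1 that kept it left out stearate+DMSO replicate 1 (limma adjusted p = 0.0294). A pseudocount of 0.1 kept the call (limma adjusted p = 0.0308), as did every other choice of expression filter (0.0105 to 0.0340).

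FASN was at 97.5, 109 and 93.8 TPM with DMSO and at 90.5, 90.0 and 84.7 TPM with CAY10566 when no fatty acid was given, a log2 fold change of -0.18 (interval -0.37 to 0.01). Its response with stearate was higher than this by 0.44 (interval 0.17 to 0.71), without passing the FDR (limma adjusted p = 0.457), and its response with oleate was 0.13. For ACSS2 the response was -0.02 without fatty acid and 0.08 with oleate, for MVD 0.06 and 0.12, and for SCD 0.08 and 0.20. In FDPS and in these 4 genes the estimate was highest with stearate, then with oleate, and lowest without fatty acid; they were chosen for their difference with stearate, and apart from FDPS against no fatty acid no difference between the responses passed the FDR. At an unadjusted p under 0.05, 8 of the 60 genes responded differently with stearate and without fatty acid, 6 of them more positively with stearate, where 9.39% of all genes did so in either direction, 327 of 13745 more positively and 964 less. Against oleate only FDPS did, of the 60, where 3.57% of all genes did so, and 0 genes passed the FDR. These counts are on TPM as deposited, and for the response with stearate itself the split by direction depended on the scaling.

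The levels from which CAY10566 started also differed between conditions. In cells without fatty acid and with DMSO, mean levels were 223 ± 2 TPM for FDPS, 179 ± 10 TPM for SCD, 102 ± 8 TPM for MVD, 47.7 ± 3.8 TPM for ACSS2 and 100.2 ± 8.2 TPM for FASN (SD, n = 3). With stearate and DMSO they were 191 ± 5, 151 ± 19, 83.8 ± 4.5, 36.9 ± 3.2 and 61.0 ± 4.4 TPM in the same order. With stearate and CAY10566 they were 226 ± 3, 195 ± 10, 108 ± 15, 46.0 ± 0.2 and 73.3 ± 4.4 TPM. These 5 genes were chosen for a difference between the samples with stearate, and the stearate+DMSO samples enter both differences, so nothing is read from how near the means with both agents come to those with neither.

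The promoters of the 3 genes of these lists with the smallest p and a single promoter entry are shown because SREBPs act beside the factor NF-Y, which binds the CCAAT box. Each line gives the 250 bases before the transcription start from RefSeq (GRCh38.p14), 5′ to 3′ on the gene's strand, and capitals mark CCAAT or its reverse complement ATTGG. The RefSeq start is that of the gene coordinates above for SCD, but lies 118 bases downstream of the gene start given above for FDPS and 70 bases downstream of the annotated gene start for MVD, so those windows reach into the annotated genes.
FDPS (chr1:155308616-155308865, plus strand): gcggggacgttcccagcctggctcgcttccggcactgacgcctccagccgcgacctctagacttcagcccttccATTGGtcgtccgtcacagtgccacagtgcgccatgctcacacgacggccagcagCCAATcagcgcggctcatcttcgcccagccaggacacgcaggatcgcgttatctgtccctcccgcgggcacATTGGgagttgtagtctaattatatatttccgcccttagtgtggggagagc
SCD (chr10:100346983-100347232, plus strand): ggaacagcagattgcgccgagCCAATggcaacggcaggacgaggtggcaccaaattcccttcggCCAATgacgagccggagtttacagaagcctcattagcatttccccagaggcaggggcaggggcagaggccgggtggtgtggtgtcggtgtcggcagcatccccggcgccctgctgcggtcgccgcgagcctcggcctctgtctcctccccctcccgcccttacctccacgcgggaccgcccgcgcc
MVD (chr16:88663092-88663341, minus strand): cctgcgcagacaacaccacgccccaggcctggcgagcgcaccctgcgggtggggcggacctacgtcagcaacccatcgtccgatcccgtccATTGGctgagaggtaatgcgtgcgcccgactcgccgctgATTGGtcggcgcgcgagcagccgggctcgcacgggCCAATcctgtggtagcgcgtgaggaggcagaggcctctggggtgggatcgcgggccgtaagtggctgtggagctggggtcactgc

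FDPS and MVD each held 3 such boxes and SCD held 2. Counted from the RefSeq start, the boxes began 176, 122 and 51 bases before the start in FDPS, 159, 120 and 85 bases before it in MVD, and 229 and 186 bases before it in SCD. Over windows of 300 bases (250 before to 50 after the start), 34.6% of all 35116 promoters held CCAAT on either strand, and 34 of the 50 members with an entry did, including 6 of the 7 mevalonate genes matched. A symbol match was found for 50 of the 60 genes. A gene was counted if any of its entries held the motif, and 16 genes had several entries. The shares over all promoters count each entry once, so the gene counts and these shares are not like for like. TCACNCCAC, the core of the sterol regulatory element, was found on either strand in 1.13% of all promoters and in 2 of the 50, SREBF2 and MID1IP1. The E-box CACGTG, which reads the same on both strands, was found in 7.26% of all promoters and in 6 of the 50, among them INSIG1, LSS and SCAP. These are letter matches and not binding sites.

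In the list of PPAR targets and fatty acid oxidation, 14 of 20 genes were tested, 9 were above 0 and the median log2 fold change was 0.01. CPT2, the inner carnitine palmitoyltransferase, was at 14.5, 14.1 and 12.9 TPM with DMSO and at 12.6, 12.5 and 12.1 TPM with CAY10566 (-0.15, interval -0.29 to -0.01), and ETFDH, which passes electrons from acyl-CoA dehydrogenases on, was at 0.14 (interval -0.30 to 0.58). PLIN2 and PDK4, often used to read PPAR activity, were below the filter. Of 7 genes of the LXR list 6 were tested, with a median of 0.004, and the receptors NR1H3 (-0.13) and NR1H2 (-0.12) had intervals that held 0. Of 15 acyl-CoA synthetase and fatty acid binding genes 12 were tested, with a median of 0.01; ACSL3, which activates fatty acids at nascent lipid droplets, was at 0.12 (interval -0.04 to 0.28) and the transporter SLC27A5 at 0.11 (interval -0.06 to 0.29).

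In the triglyceride and lipid droplet list, 20 of 22 genes were tested and 6 were above 0, with a median log2 fold change of -0.04. After rescaling 10 of these 20 were above 0 and the median was -0.003. HILPDA, a lipid droplet protein that inhibits lipolysis, was at 7.71, 8.56 and 9.66 TPM with DMSO and at 5.58, 7.07 and 8.49 TPM with CAY10566, which overlap (-0.27, interval -0.54 to -0.01). The hormone-sensitive lipase LIPE was at 0.30 (interval -0.10 to 0.71). In the phospholipid list, all 19 genes were tested and 4 were above 0, with a median of -0.07 on TPM as deposited. The samples with the inhibitor were lower without overlap in 6 of the 19 and higher in 0, beside 8.66% and 2.93% of all genes. After rescaling 6 were above 0 and the median was -0.04, beside -0.00098 over all genes. LPCAT2 (-0.17, interval -0.62 to 0.28), a lysophosphatidylcholine acyltransferase, and PCYT2 (0.13, interval -0.08 to 0.34), of phosphatidylethanolamine synthesis, had the largest absolute estimates, neither apart from 0. No tested gene of these 5 lists passed the FDR, and those with an unadjusted p under 0.05, all lower, were CPT2, HILPDA, GPAT4 and MBOAT7. Over all genes 4.07% were lower and 1.51% higher. After rescaling, only 1 gene of the triglyceride list was lower. After the length and GC correction, 1 gene of that list was higher and 2 were lower, and 2 acyl-CoA genes and 1 phospholipid gene were higher.

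All 48 listed genes of the 3 UPR arms were tested, and 0 passed the FDR in limma. Of these, 14 (29.2%) were above 0 and the median log2 fold change was -0.04, beside 35.9% and -0.03 over all genes. At an unadjusted p under 0.05, 0 were higher and 10 lower (1.51% and 4.07% of all genes). In 11 of them the samples with the inhibitor were lower without overlap and in 1 higher (8.66% and 2.93% of all genes). After rescaling the median was -0.004 and 4 were lower (8.33%, beside 2.19% of all genes), and after the length and GC correction 7 were lower (14.6%, beside 3.27%). For 41 of them (85.4%) the interval lay inside the fold threshold. In the PERK-ATF4 arm 3 of 19 genes were above 0, with a median of -0.07 as deposited and -0.04 after rescaling. This arm held 7 of the 10 lower genes (36.8% of its members, beside 4.07% of all genes), of which 0 passed the FDR, and 6 of its genes were lower without overlap. After rescaling 3 of the 19 were lower (15.8%) and after the length and GC correction 5 (26.3%), beside 2.19% and 3.27% of all genes. DDIT3, which encodes the pro-apoptotic factor CHOP, was at 161, 152 and 167 TPM with DMSO and at 153, 156 and 154 TPM with CAY10566, a log2 fold change of -0.05 (interval -0.14 to 0.05). ATF4 itself, mainly regulated in translation, was at 619, 612 and 606 TPM against 599, 604 and 594 TPM (-0.03, interval -0.09 to 0.03; 0.003 after rescaling), and EIF2AK3, which encodes PERK, at 0.10 (interval -0.17 to 0.37).

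Among targets of ATF4, ATF5 was at 24.8, 24.2 and 26.9 TPM with DMSO and at 21.1, 22.0 and 21.0 TPM with CAY10566 (-0.23, interval -0.41 to -0.06, limma adjusted p = 0.754). SESN2, a stress-induced inhibitor of mTORC1, was at 31.6, 30.2 and 32.3 TPM against 25.5, 28.3 and 28.2 TPM (-0.19, interval -0.33 to -0.05). In both genes the groups did not overlap, and neither passed the FDR. In the IRE1 and ATF6 arms the values were closer still. XBP1, the substrate of IRE1, had a total level of 192, 186 and 183 TPM with DMSO and 172, 181 and 171 TPM with CAY10566 (-0.10, interval -0.18 to -0.02), and TPM per gene does not separate its spliced form. DNAJB9, a target of spliced XBP1, was at 0.18 (interval -0.14 to 0.50) and ERN1, which encodes IRE1, at -0.05 (interval -0.31 to 0.20). HSPA5, which encodes the chaperone BiP, was at 569, 603 and 560 TPM against 545, 541 and 532 TPM (-0.10, interval -0.19 to -0.01), CALR, calreticulin, at -0.12 (interval -0.21 to -0.04) and ATF6 at 0.00 (interval -0.26 to 0.26). The median of the IRE1-XBP1 arm was -0.02 as deposited and 0.02 after rescaling, and that of the ATF6 arm -0.04 and -0.005.

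Of 22 apoptosis and DNA damage genes 21 were tested, 6 were above 0, the median log2 fold change was -0.02 (0.01 after rescaling) and 18 had an interval inside the fold threshold. At an unadjusted p under 0.05, 0 of them were higher and 5 (23.8%) lower, and in 4 the samples with the inhibitor were lower without overlap, beside 4.07% and 8.66% of all genes; after rescaling 3 were lower (14.3%, beside 2.19%), and after the length and GC correction 5 (23.8%, beside 3.27%). MDM2, the ubiquitin ligase of p53, was at 34.3, 33.8 and 29.8 TPM with DMSO and at 23.9, 28.3 and 28.9 TPM with CAY10566 (-0.27, interval -0.47 to -0.06), and BBC3, the p53 target PUMA, at 47.3, 46.3 and 52.6 TPM against 42.0, 42.6 and 41.3 TPM (-0.21, interval -0.34 to -0.08). Both were lower in all 3 samples with the inhibitor, without passing the FDR. H2AX, whose phosphorylated protein marks DNA breaks, was at -0.15 (interval -0.28 to -0.02). Protein phosphorylation and cleavage were not measured by these data.

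**Figure D4:**
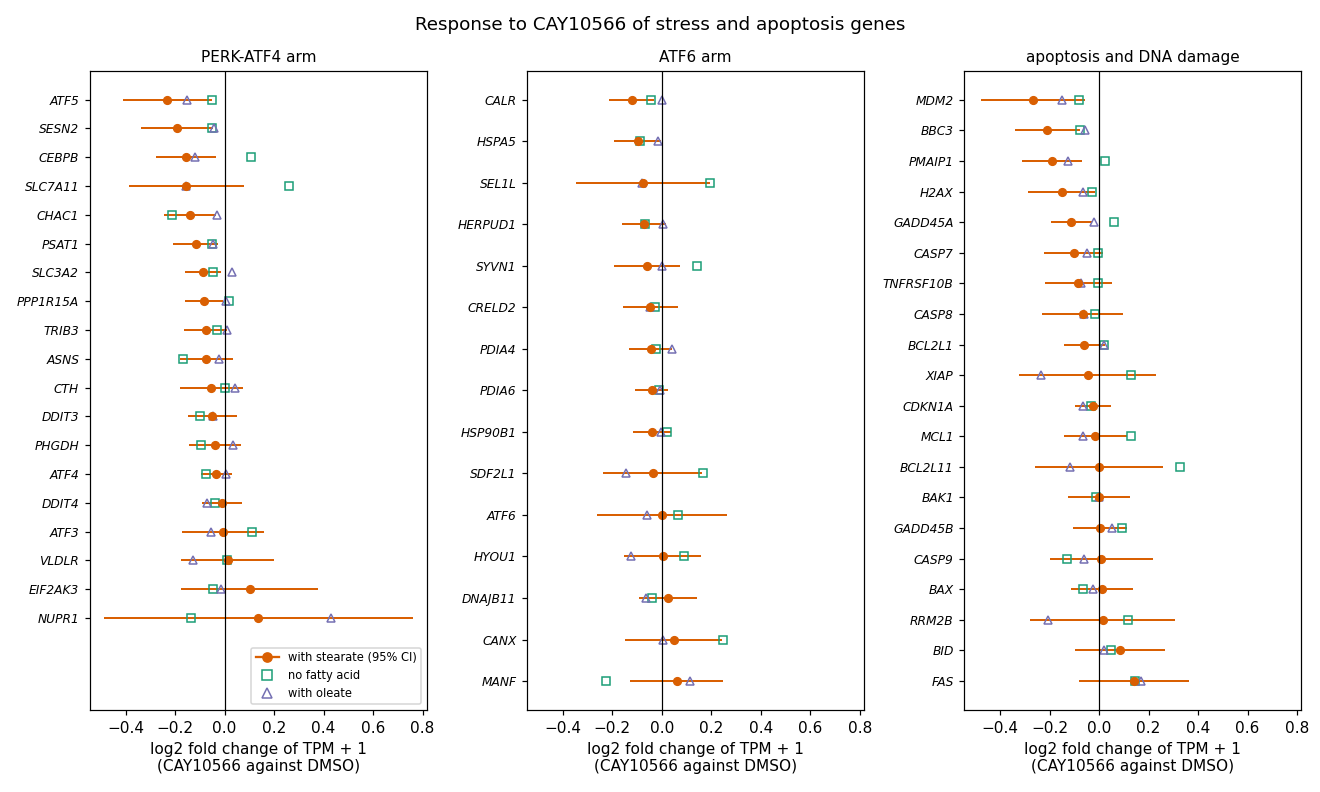
Log2 fold change of TPM + 1 (x axis; CAY10566 against DMSO) for tested genes of the PERK-ATF4 arm, the ATF6 arm and the apoptosis and DNA damage list that are reported here, with stearate (orange points with 95% confidence intervals from limma), without fatty acid (green squares) and with oleate (violet triangles). Most orange points lie between 0 and -0.20, and ATF5 (-0.23) and MDM2 (-0.27) are the lowest of their panels.

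The 1 gene called by both thresholds was LINC02454, a long non-coding RNA without an established function (GRCh38, chr12:65589111-65614169, plus strand). It was at 7.79, 7.08 and 7.87 TPM with DMSO and at 13.8, 13.4 and 11.4 TPM with CAY10566. The groups were well apart, and the log2 fold change was 0.69 ± 0.09 (SE, n = 3 per group; interval 0.49 to 0.88, limma with Benjamini-Hochberg adjustment, adjusted p = 0.0165). Mean levels in the other conditions were 10.5 ± 0.5 TPM with DMSO, 11.7 ± 0.6 TPM with CAY10566, 13.3 ± 1.3 TPM with oleate+DMSO and 12.4 ± 1.3 TPM with oleate+CAY10566 (SD, n = 3), so that the stearate+DMSO samples were the lowest of all 18. The response with stearate differed from that without fatty acid by 0.54 (interval 0.27 to 0.82, limma adjusted p = 0.379) and from that with oleate by 0.78 (interval 0.50 to 1.05, limma adjusted p = 0.242), and neither difference passed the FDR. Of the 6 fits that each left out 1 of the 6 samples with stearate, 2 kept LINC02454 past the FDR, those without stearate+DMSO replicate 1 and without stearate+CAY10566 replicate 3, and its adjusted p ranged from 0.00586 to 0.192.

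The next genes by p, with at least 5 TPM and groups that did not overlap, did not pass the FDR in the main fit. On the higher side were RNVU1-32, PCNX1 and SCD. RNVU1-32, a variant U1 small nuclear RNA gene of a family with near-identical copies, was listed at 0 in all 3 stearate+DMSO samples and at 20.7, 19.5 and 26.6 TPM with CAY10566. With oleate it was listed at 0 in 1 of 3 samples of each condition and otherwise at 7.72 to 17.4 TPM, and such small RNAs are poorly captured in libraries made from polyadenylated RNA. Fitted on the 6 samples alone, RNVU1-32 and PAEPP1 were the 2 genes past the FDR, and FDPS and LINC02454 were not. PCNX1, a membrane protein, was at 14.1, 13.6 and 14.5 TPM against 20.1, 17.5 and 21.95 TPM (0.46, interval 0.25 to 0.68).

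The lower side held 2 genes of selective autophagy. SQSTM1, which encodes the cargo receptor p62, was at 1505, 1457 and 1411 TPM with DMSO and at 1199, 1322 and 1248 TPM with CAY10566 (-0.22, interval -0.31 to -0.12, limma adjusted p = 0.236). GABARAPL1, a membrane-anchored protein of the ATG8 family, was at 45.9, 41.2 and 43.2 TPM against 30.2, 34.2 and 32.2 TPM (-0.42, interval -0.59 to -0.25, limma adjusted p = 0.162). Both groups were clearly apart in these samples. DHRS2, a dehydrogenase, was at -0.24 (interval -0.33 to -0.15) and CCN2, a matricellular protein and YAP target, at -0.20 (interval -0.28 to -0.12). Without fatty acid, the responses were 0.08 for SQSTM1, -0.05 for GABARAPL1, -0.02 for DHRS2 and 0.03 for CCN2. With oleate they were -0.04, -0.16, -0.11 and 0.01 in the same order.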

How the data were processed

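RNA of OVCAR5 cells was measured in 18 samples, 3 per condition, of which the 6 with stearate form the comparison. Groups and replicate numbers came from the labels. The authors sequenced polyadenylated RNA as 100 bp paired-end reads, trimmed them with Trim Galore, aligned them to GRCh38 with STAR 2.7.1a and quantified them with RSEM, and the authors deposited gene-level TPM, which carry no information on depth. A line naming no gene was left out, and 93.1% of gene identifiers had a symbol. Coordinates follow GENCODE 44 (GRCh38). limma 3.58.1 (R 4.3.3; lmFit, eBayes with trend) was fitted to log2(TPM + 1) of genes averaging 1 TPM or more in the 6 samples, in a model of 6 conditions over 18 samples, with Benjamini-Hochberg adjustment. Confidence intervals are 95% intervals of that fit. The members, the gene lists and the tests were chosen with earlier results of these data known.

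Named genes were the tested members of the 5 sterol and fatty acid lists, genes of proteins studied after stearate and CAY10566, called genes and, below 5 per direction, the 5 with the smallest p among genes of at least 5 TPM without overlap between groups, and the 2 members of each other list with the largest absolute change. Some genes within this rule are counted in their lists but not reported here. Other genes are named as examples and were chosen after their values were seen. Alternatives were a pseudocount of 0.1, no filter, a mean TPM of at least 5, a filter over all 18 samples, no trend, median-of-ratios rescaling, the replicate number as a block, the 6 samples alone, each sample left out, and, chosen after the data were seen, a correction of every library for transcript length and GC content. Same-numbered samples of the 2 groups did not deviate together (correlations over genes of -0.09, 0.05 and -0.09), so the numbers were not taken as pairs. Figures used matplotlib 3.10.9.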

Additional observations from a re-analysis of the deposited data

Results flagged for a closer look

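FDPS was singled out because its response to CAY10566 differed between cells with stearate and cells without fatty acid. The difference of the 2 responses was 0.34 on the log2 scale (95% confidence interval 0.24 to 0.44, limma with Benjamini-Hochberg adjustment, adjusted p = 0.0333), from a response of 0.24 with stearate and of -0.10 without fatty acid (limma adjusted p = 0.436, which did not pass). With stearate all 3 samples with the inhibitor were above all 3 without it, and without fatty acid all 3 were below. FDPS was 1 of 13745 genes past the FDR in this comparison, and the call was not kept in most of the alternative fits.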

How the results depend on the processing

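The counts were small. The number of called genes and the number that differed against no fatty acid moved with most settings, but the number that differed against oleate moved with few. With no filter on TPM, 4 genes were called and 6 passed the FDR, 2 differed in response between stearate and no fatty acid and 2 between stearate and oleate; with a pseudocount of 0.1, 2 differed against no fatty acid. Without the variance trend, 1 gene passed the FDR (FDPS did not, adjusted p = 0.330) and 0 differed against no fatty acid. Rescaling called 2 genes (LINC02454 and SCD), and the length and GC correction, chosen after the data were seen, called 3 (with FOXRED2) of 4 past the FDR; in both, 0 differed against no fatty acid. The 6 samples alone gave 2 called genes, RNVU1-32 and PAEPP1, with adjusted p of 0.403 for FDPS and 0.307 for LINC02454. With the replicate number as a block, the called genes stayed at 1 and those past the FDR at 2 (FDPS and LINC02454), and 0 differed against no fatty acid; the block changed no other call.

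With 1 sample left out, 0 to 2 genes were called and 0 to 2 passed the FDR, 0 to 1 differed against no fatty acid and 0 to 1 against oleate. The median absolute log2 fold change stayed between 0.06 and 0.09 and the share of variance between 20.3% and 21.8% in every setting run. Some genes turned sign, all with a main log2 fold change of at most 0.10 in size. Rescaling gave SC5D 0.0047, MBTPS2 0.014, ACLY 0.028, ME1 0.0068, MID1IP1 0.0022, ELOVL5 0.020, ELOVL7 0.020 and ATF4 0.0035. The length and GC correction gave SC5D 0.018, MBTPS2 0.024, ACLY 0.017, ME1 0.0076, ELOVL5 0.016 and ELOVL7 0.030. A pseudocount of 0.1 gave ATF6 -0.0016. With 1 sample left out, the ranges were MBTPS2 -0.084 to 0.016, ACLY -0.066 to 0.044, ELOVL7 -0.094 to 0.093, HACD1 -0.039 to 0.065, SCAP -0.075 to 0.064, TMEM97 -0.023 to 0.054, ELOVL5 -0.037 to 0.0089, HACD3 -0.016 to 0.026, PNPLA3 -0.14 to 0.15, ELOVL1 -0.028 to 0.035, ATF6 -0.17 to 0.12, EIF2AK3 -0.033 to 0.20, ERN1 -0.13 to 0.013, MVK -0.0030 to 0.15 and FADS3 -0.038 to 0.097. The cause of these changes was not tested. With 3 samples per group and an unknown depth, changes under 25% in genes of few TPM could not be resolved.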

Other observations

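Genes outside the lists were looked up after the values of SQSTM1, GABARAPL1, CCN2 and DHRS2 had been seen, so they are given as values only. Over all genes tested, the groups did not overlap in 2.93% that were higher and in 8.66% that were lower with stearate+CAY10566. Of 17 targets of NRF2, the factor that SQSTM1 helps to release, 5 lay lower and 1 higher without overlap, and 11 overlapped. NQO1 was at 900.2, 919 and 907 TPM with stearate+DMSO and at 854, 839 and 816 TPM with stearate+CAY10566 (log2 fold change -0.12). SRXN1 was at 270.2, 277 and 269 TPM against 239, 251 and 245 TPM (-0.15), and OSGIN1 at 24.2, 23.9 and 25.8 TPM against 20.1, 21.9 and 21.0 TPM (-0.22). The others without overlap were HMOX1 (-0.11), FTL (-0.10) and AKR1C2 (0.37).

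Of 11 autophagy genes, 3 lay lower without overlap, SQSTM1, GABARAPL1 and MAP1LC3B (-0.10), and 8 overlapped. SQSTM1 and GABARAPL1 had prompted the look-up, so only MAP1LC3B was added by it. Of 8 YAP and TEAD targets, 1, CCN2, lay lower without overlap and 7 overlapped, among them CCN1 (-0.08), ANKRD1 (0.03) and F3 (0.13). CCN2 had also prompted the look-up, which added no further target without overlap. Of 11 cytokines, 3 lay lower and 1 higher without overlap, and 7 overlapped. IL6 was at 83.6, 81.8 and 80.1 TPM with stearate+DMSO and at 63.3, 67.2 and 69.4 TPM with stearate+CAY10566 (-0.29), and IL1B at 99.95, 97.6 and 104 TPM against 121, 113 and 115 TPM (0.21). CXCL1 (-0.12) and CXCL3 (-0.10) were the other cytokines without overlap. CXCL2 (-0.12), CXCL8 (-0.03), IL1A (-0.00), TNF (-0.06), CCL20 (-0.07), LIF (0.02) and IL24 (-0.01) overlapped. None of these genes passed the FDR in limma.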
